A study of Mus musculus with 2 samples.

Results

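The nuclear genes of oxidative phosphorylation were described complex by complex in mouse liver with and without AAOT (acetoaceto-o-toluidide), an aromatic amide made from o-toluidine. The genes were taken by symbol: those that begin with Nduf, Uqcr, Cox4 to Cox8 or Atp5, plus Sdha, Sdhb, Sdhc and Sdhd. This gave 87 of the 15526 genes listed, of which 77 had a mean of at least 10 CPM (counts scaled to library size by the authors) over both libraries and entered the counts below. The 2 libraries were a control pool (AAOT at 0%) and an AAOT pool (0.3%), each made from mixed liver RNA of 3 female NOG-TKm30 mice aged 22 weeks and treated for 4 weeks. The labels also give C57BL as strain background, and the sources used here do not give the route of AAOT. Mice of both pools carry a herpes simplex virus thymidine kinase mutant (HSVtk clone 30) driven by a mouse transthyretin enhancer and promoter, which is active in hepatocytes, on the severely immunodeficient NOG strain. The pools held 18801241 (control) and 16528533 (AAOT) reads. With 1 pooled library per group there is no spread between mice, no test of the treatment and no p-value, and the 95% intervals given are exact intervals for the ratio of 2 read counts that cover counting error only.

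Oxidative phosphorylation is carried out in the inner mitochondrial membrane by complexes I to V. Complexes I and II take electrons from NADH and succinate, complex III passes them to cytochrome c, complex IV hands them to oxygen, and complex V, the ATP synthase, uses the resulting proton gradient to make ATP. A few subunits are encoded in mitochondrial DNA, and the others are nuclear genes. Of 15 genes of mitochondrial DNA looked up by symbol, 0 were among the genes listed, so they could not be compared. The regulators NRF1, GABPA (an ETS factor) and YY1 are known to bind promoters of many of these genes, and the coactivator PGC-1alpha acts with them.

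Promoter sequence was a feature that the choice by symbol did not use. RefSeq windows on GRCm38.p6, from 250 bases before to 50 bases after the start of the gene, were matched for 73 of the 87 genes and searched on both strands. The core of the NRF1 motif, GCATGCGC, was present for 12 of the 73 genes (16.4%), against 3.05% of all 27025 genes with a window. Among genes at 10 CPM or more it was present for 10 of 66 (15.2%), against 6.48% of 5991 listed genes. The YY1 motif AAGATGGC was present for 11 of the 73 (15.1%), against 3.19% of all genes, and at 10 CPM or more for 11 of 66 (16.7%), against 5.99%. The ETS motif CCGGAAG was present for 17 of the 73 (23.3%), against 9.93% of all genes, but at 10 CPM or more for 16 of 66 (24.2%), against 21.0%, so that its share was close to that of other genes expressed in these livers. The NRF1 core can overlap its own reverse complement and an ETS match can run into a YY1 match, but in 0 of the 73 genes did matches of different motifs share bases. A match is a description of these letters, not a site. The stretches of 250 bases before the start are printed below for the 2 genes with the lowest ratios among those at 10 CPM or more, Atp5j2 (chr5:145191542-145191791, minus strand) and Ndufa1 (chrX:37191239-37191488, minus strand), and for 2 genes with an NRF1 core, Cox6a1 (chr5:115348959-115349208, minus strand) and Sdhb (chr4:140961021-140961270, plus strand). Capitals mark whole NRF1 core and ETS matches, in Cox6a1 an NRF1 core read on both strands and an ETS match.
Atp5j2: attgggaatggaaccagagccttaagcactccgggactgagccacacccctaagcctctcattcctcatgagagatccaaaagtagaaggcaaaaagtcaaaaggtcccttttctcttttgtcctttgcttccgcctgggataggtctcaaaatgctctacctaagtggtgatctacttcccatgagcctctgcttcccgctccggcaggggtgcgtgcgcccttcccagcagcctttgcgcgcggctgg
Ndufa1: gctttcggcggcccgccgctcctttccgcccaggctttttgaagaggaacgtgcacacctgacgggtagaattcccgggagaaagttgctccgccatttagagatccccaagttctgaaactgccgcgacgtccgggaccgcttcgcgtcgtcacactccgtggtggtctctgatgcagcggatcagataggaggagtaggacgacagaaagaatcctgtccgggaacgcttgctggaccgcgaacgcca
Cox6a1: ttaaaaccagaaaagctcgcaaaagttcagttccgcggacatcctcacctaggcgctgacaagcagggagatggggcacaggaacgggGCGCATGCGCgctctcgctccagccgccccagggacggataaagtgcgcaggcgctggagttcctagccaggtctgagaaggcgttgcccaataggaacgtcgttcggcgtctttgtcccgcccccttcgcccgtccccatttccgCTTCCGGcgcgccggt
Sdhb: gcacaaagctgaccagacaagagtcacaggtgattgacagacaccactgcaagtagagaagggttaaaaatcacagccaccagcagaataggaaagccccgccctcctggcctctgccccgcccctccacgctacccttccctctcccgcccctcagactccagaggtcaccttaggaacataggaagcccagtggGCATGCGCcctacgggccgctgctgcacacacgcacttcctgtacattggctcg
The printed stretches of Atp5j2 and Ndufa1 hold none of the 3 motifs. In Atp5j2 a YY1 match starts at base 24 counted from the start of the gene, and in Sdhb an ETS match starts at base 7. The median log2 ratio, log2((AAOT + 1)/(control + 1)), was -0.01 for the 10 genes with an NRF1 core above 10 CPM and -0.06 for the 56 without. It was -0.10 for 11 genes with a YY1 match and -0.04 for 55 without, and -0.04 for 16 genes with an ETS match and -0.06 for 50 without.

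**Figure D1:**
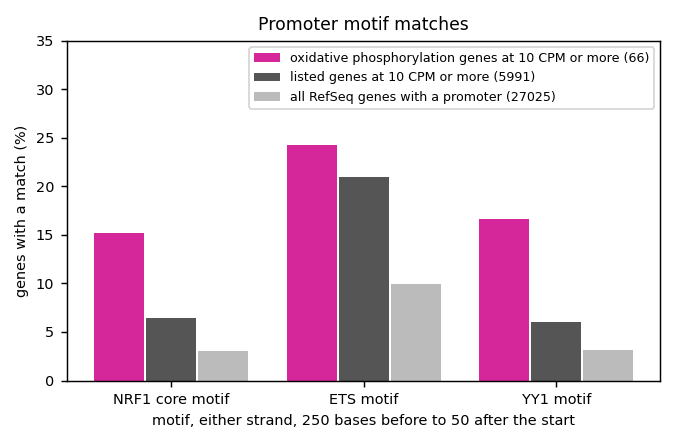
Percent of genes (y axis) whose promoter window holds each motif (x axis), for the 66 oxidative phosphorylation genes at 10 CPM or more (pink), listed genes at 10 CPM or more (dark grey) and all RefSeq genes with a window (light grey). The NRF1 core and YY1 bars are higher for the oxidative phosphorylation genes (15.2% and 16.7%) than for the listed genes (6.48% and 5.99%), and the ETS bars are close (24.2% and 21.0%).

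The 77 genes differed little between the pools. Differences were counted past 0.32 on the log2 scale, log2((AAOT + 1)/(control + 1)), which is 25% higher or 20% lower. None of the 77 was at least 25% higher with AAOT, as 7.02% of all 7761 genes at 10 CPM or more were. Only 2, Atp5j2 and Ndufa1, were at least 20% lower (2.60%), against 5.93% of all genes, and this count was 0 to 5 under other scalings. None reached 1.5-fold in either direction, against 2.07% of all genes higher and 1.39% lower, or 2-fold, against 0.773% and 0.425%. The SD of the log2 ratio across genes was 0.11 for the 77 genes and 0.29 for all genes. Within that narrow range more genes were lower than higher: 57 of the 77 (74.0%) had a log2 ratio below 0, against 53.6% of all genes, and the shares were 61.0% and 45.4% with both columns scaled to the same total and 87.0% and 60.9% with upper quartile scaling. The median was -0.06, against -0.02 for all genes, and stayed below 0 under the 4 other scalings tried. The counting interval lay below equality for 22 of the 77 (28.6%; 20.8% of all genes) and above it for 2 (2.60%; 18.7% of all genes). These shares depend on depth, as the median half-width on the log2 scale was 0.12 for the 77 and 0.16 for all genes. By mean level, intervals below equality numbered 4 of 13 (511 of 3285 genes) at 10 to 30 CPM. They numbered 11 of 39 (597 of 2945 genes) at 30 to 100 CPM and 7 of 25 (509 of 1531 genes) from 100 CPM. Summed over all 87 genes, the level was 8728 CPM without AAOT and 8440 CPM with it, 1.03-fold lower (1.03 to 1.04). The sum over all genes was itself 1.03-fold lower as deposited, and with both columns scaled to the same total the 87 genes were 1.009-fold lower. In liver RNA, fewer cells of a type and less RNA per cell cannot be told apart.

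**Figure D2:**
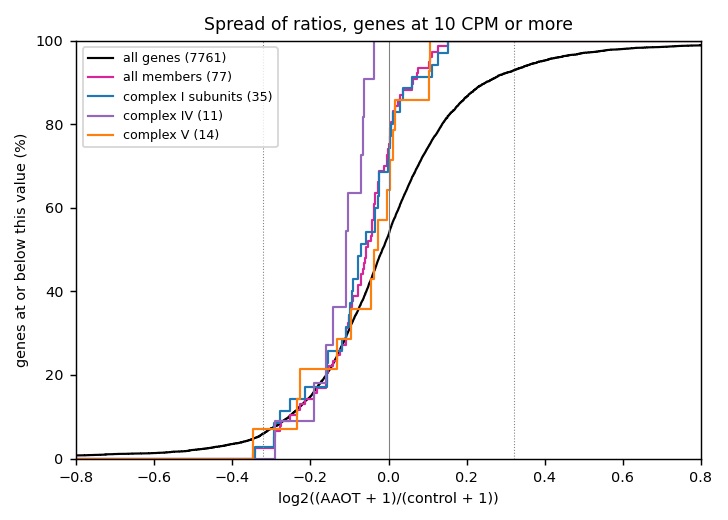
Percent of genes (y axis) at or below each log2((AAOT + 1)/(control + 1)) (x axis) for all 7761 genes, the 77 oxidative phosphorylation genes, and complexes I, IV and V among them, with dotted lines at 25% higher and 20% lower. The oxidative phosphorylation curves are steeper than that of all genes, and the whole complex IV curve lies left of 0.

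The liver label was checked against markers. The 6 hepatocyte markers (Alb, Ttr, Apoa1, Cps1, Cyp2e1 and Hnf4a) summed to 81248 CPM without AAOT and 70229 CPM with it, with 5 of 6 lower. Of 9 heart and skeletal muscle markers 3 were listed, with 1 to 4 reads in a pool. The 5 Kupffer cell markers summed to 249 and 264 CPM, the 4 sinusoidal endothelial markers to 223 and 230 CPM, the 4 stellate cell markers to 451 and 396 CPM, the 4 cholangiocyte markers to 10.4 and 9.02 CPM, the 5 erythroid markers to 321 and 351 CPM and the 4 neutrophil markers to 0.754 and 1.02 CPM. The erythroid sum includes Hbb-bs, with 0 reads without AAOT and 102 with it. Of the 4 erythroid markers at 10 CPM or more, 2 were below 0 and 2 above. The part of any of these cell types in the ratios below was not tested.

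Complex I, the NADH dehydrogenase, was represented by 36 subunit genes, of which 35 reached 10 CPM. Its median log2 ratio was -0.07, with 25 of 35 below 0 (19 to 30 under the other scalings), 1 at least 20% lower and 0 at least 25% higher. The 7 core subunits of the hydrophilic arm, which hold the flavin and iron-sulfur clusters, were nearly equal in the pools, with a median of -0.03. Ndufs1, the largest of them, was at 119 CPM without AAOT and 124 CPM with it, a ratio of 1.04 (0.98 to 1.11). Ndufs7, which carries the last cluster, was at 56.1 CPM in both pools. Ndufs3 and Ndufv2 stood at 85.8 and 83.8 CPM and at 68.1 and 66.4 CPM. The flavin-binding Ndufv1 was the lowest of the core subunits, at 146 CPM without AAOT and 135 CPM with it, 1.09-fold lower (1.03 to 1.15). The iron-sulfur subunit Ndufs8 was the highest, at 42.4 and 46.4 CPM, a ratio of 1.09 (0.99 to 1.21). Of the 7 core intervals, 6 held equality.

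The 28 supernumerary subunits of complex I above 10 CPM, which surround the core and are needed for its assembly and stability, had a median of -0.08, with 20 below 0. For 8 of the 28 the counting interval lay below equality, against 1617 of all 7761 genes (20.8%). For none it lay above, against 18.7% of all genes. Ndufa1 (chromosome X, 37187588 to 37191238), a small membrane subunit whose promoter is printed above, was at 29.5 CPM (547 reads) without AAOT and 23.0 CPM (385 reads) with it, 1.28-fold lower (1.12 to 1.46). Just inside the limit of 20% lower were Ndufb2, of the membrane arm, at 27.8 and 22.5 CPM, 1.24-fold lower (1.08 to 1.42), and Ndufa2, of the matrix arm, at 34.2 and 27.7 CPM, 1.23-fold lower (1.09 to 1.39). Ndufs6, which binds zinc, was at 38.7 and 31.7 CPM, 1.22-fold lower (1.09 to 1.37). In that order, Ndufb2, Ndufa2 and Ndufs6 overlap exons of Braf, Tmco6 and Mrpl36 on the opposite strand. The sources used here do not say whether counting used strand. Ndufb9 was at 89.6 and 80.3 CPM. It had the highest level per kilobase of the longest transcript among complex I genes in the control pool, at 127 CPM per kb. By the median length of coding transcripts Ndufs1 led at 183 CPM per kb, with 651 bases against 2661 for its longest transcript. Ndufa7, next in the mean over both pools, was at 61.4 and 62.7 CPM, and Ndufb4 at 45.0 and 42.6 CPM. The 4 lowest genes are all supernumerary and of moderate level, and their intervals overlap each other. At the other end of the range stood Ndufs5 and Ndufa11, which were chosen after their values were seen. Ndufs5 was at 9.64 and 10.8 CPM, with an interval of 0.91 to 1.39, and Ndufa11 at 29.0 and 31.4 CPM, with an interval of 0.96 to 1.22. Ndufb3, the only complex I subunit under 10 CPM, had 157 and 143 reads.

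The 7 complex I assembly factors (Ndufaf1 to Ndufaf7), which help build the complex without staying in it, were far less abundant than the subunits. Only 3 reached 10 CPM, with a median of -0.04 and none past the limits. Ndufaf1 was at 21.5 and 21.0 CPM, Ndufaf4 at 19.8 and 18.1 CPM and Ndufaf7 at 13.2 and 13.1 CPM. In the control pool their median was 5.46 CPM per kb, against 42.2 CPM per kb for complex I subunits. The other 4 had 29 to 135 reads in a pool. Among these Ndufaf6, chosen after its values were seen, was at 4.95 CPM (92 reads) without AAOT and 7.41 CPM (124 reads) with it, a ratio of 1.496 (1.13 to 1.98), while Ndufaf2 had 46 and 29 reads, with an interval that held equality.

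Complex II, succinate dehydrogenase, is the only complex with no subunit from mitochondrial DNA, and it also serves in the citric acid cycle. Its 4 genes were nearly equal in the pools, and all 4 intervals held equality. The flavoprotein Sdha was at 410 CPM without AAOT and 398 CPM with it, a ratio of 0.97 (0.94 to 1.003). The iron-sulfur protein Sdhb was at 131 and 138 CPM, a ratio of 1.05 (0.996 to 1.12). The membrane anchors Sdhc and Sdhd were at 133 and 135 CPM and at 148 and 149 CPM. The median log2 ratio of the 4 was 0.01, and it was -0.02 with upper quartile scaling. Summed, they gave 823 and 820 CPM.

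Complex III, the cytochrome bc1 complex, had 8 genes, all above 10 CPM, with a median of -0.06 and 7 of 8 below 0 (6 or 7 under the other scalings). The lower values lay mainly in small subunits. Uqcrq (chromosome 11, 53427922 to 53430831), a small subunit beside cytochrome b, was at 193 CPM (3589 reads) without AAOT and 160 CPM (2671 reads) with it, 1.21-fold lower (1.15 to 1.27). Uqcrb, which takes part in quinone binding, was at 48.6 and 42.7 CPM, 1.14-fold lower (1.03 to 1.26). These were the only genes of complex III whose interval lay below equality. Uqcr10 was at 75.2 and 72.1 CPM, and at 148 CPM per kb in the control pool it had the highest level of the complex per kilobase of the longest transcript. By the median length of coding transcripts Uqcrc1 led at 423 CPM per kb, with Uqcr10 at 173. That length is 533 bases for Uqcrc1, whose longest transcript has 2473 bases. The Rieske iron-sulfur protein Uqcrfs1, a catalytic subunit, was at 183 and 191 CPM, a ratio of 1.05 (0.996 to 1.098), and was the only 1 of the 8 genes above 0. Cyc1, cytochrome c1 and also a catalytic subunit of nuclear origin, fell outside the choice by symbol, and was at 176 and 167 CPM, with an interval that held equality. The 5 small subunits (Uqcrb, Uqcrq, Uqcrh, Uqcr10 and Uqcr11) had a median of -0.06, and the 2 core proteins also -0.06.

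Complex IV, cytochrome c oxidase, was the complex with the lowest median and with no gene above 0. All 11 genes above 10 CPM had a log2 ratio below 0, as deposited and under each of the 4 other scalings, with a median of -0.11 (-0.14 to -0.07 over the scalings). Of all genes, 53.6% were below 0 as deposited and 45.4% to 60.9% under the other scalings. For 7 of the 11 the interval lay below equality, against 20.8% of all genes and 509 of 1531 genes from 100 CPM. These counts depend on depth, as the median half-width was 0.09 in complex IV and 0.16 for all genes. None of the 11 was 20% lower, and the range was only -0.29 to -0.04. Cox4i1 (chromosome 8, 120668225 to 120674209), the main isoform of the subunit that contacts the catalytic core, was the lowest, at 275 CPM (5115 reads) without AAOT and 225 CPM (3763 reads) with it, 1.22-fold lower (1.17 to 1.28). Cox7b was at 105 and 92.1 CPM, 1.14-fold lower (1.07 to 1.22). Ndufa4, first assigned to complex I and now known as a complex IV subunit, was at 149 and 133 CPM, 1.12-fold lower (1.06 to 1.18). Cox4i1 overlaps exons of Emc8, which was at 23.5 CPM in both pools. The interval of Cox4i1 lies apart from those of the genes nearest to equality but overlaps those of Cox7b, Ndufa4 and Cox5b. The other genes overlap their neighbours too. Cox5b was at 67.7 and 61.3 CPM, Cox6b1 at 132 and 122 CPM, Cox6a1, whose promoter is printed above, at 95.6 and 88.6 CPM, and Cox7c at 127 and 118 CPM, and each of these intervals lay below equality. Cox7a2 at 73.1 and 69.6 CPM and Cox8a at 149 and 143 CPM had intervals that held it. Summed over all 14 genes of the class, complex IV was at 1355 CPM without AAOT and 1228 CPM with it, 1.104-fold lower (1.08 to 1.12), and 1.08-fold lower with both columns scaled to the same total. Per kilobase of the longest transcript, Cox4i1 and Cox8a led the class, at 360 and 272 CPM per kb in the control pool. By the median length of coding transcripts Ndufa4, at 323 CPM per kb, stood between them.

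Isoforms of complex IV subunits that are known from other tissues or from low oxygen were nearly undetected in both pools. Cox7a1, the heart and muscle isoform, had 8 reads without AAOT and 11 with it. Cox4i2, an isoform of lung and low oxygen, had 2 and 3 reads, and Ndufa4l2, a gene induced by low oxygen, had 20 and 21 reads. All 3 intervals held equality and were wide, so a difference in these genes was not detectable at this depth. Cox7a2l, a relative of Cox7a2 that joins complexes III and IV into supercomplexes, was counted apart and was at 48.3 and 46.9 CPM. Also counted apart were Atp5sl, in RefSeq Dmac2, at 22.8 and 24.1 CPM, and Atp5s, in RefSeq Dmac2l, with 66 and 53 reads. Dmac2 is also on the list of 50 assembly factors and electron carriers used below, but was counted only here. The intervals of Cox7a2l, Atp5sl and Atp5s held equality.

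**Figure D3:**
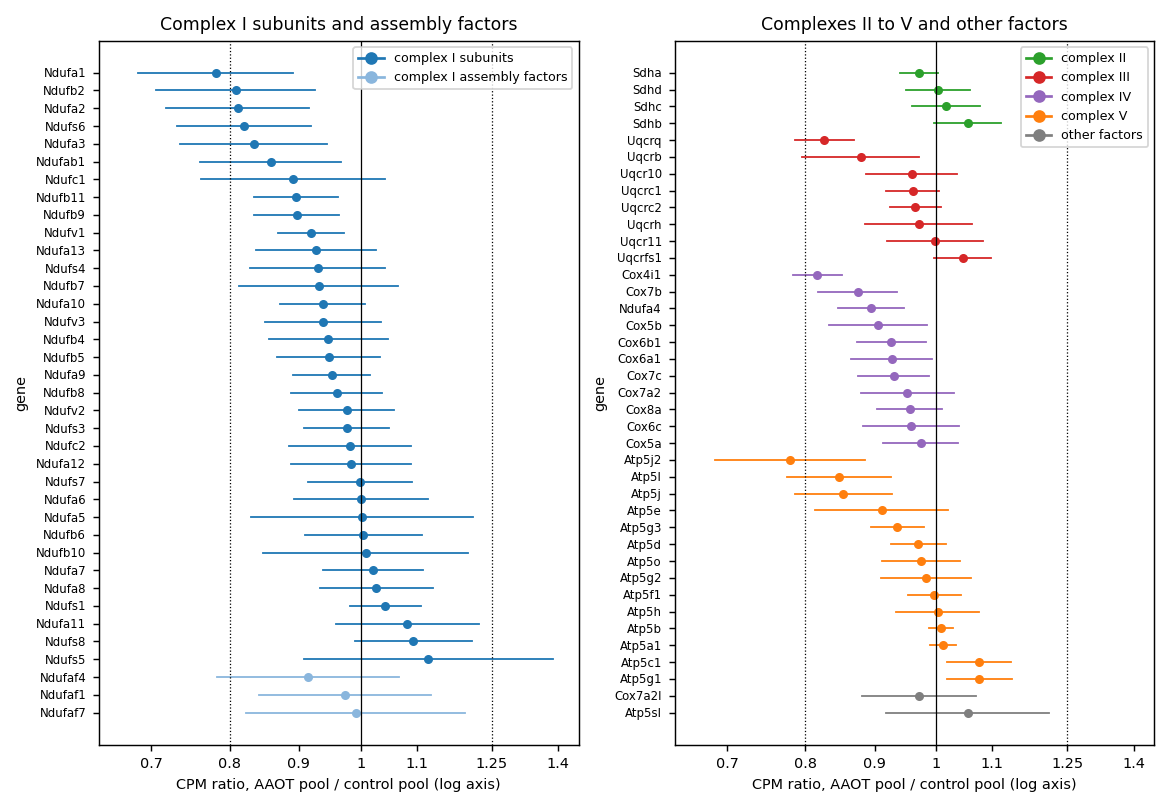
CPM with AAOT divided by CPM without it (x axis, log scale) for 76 of the 77 genes at 10 CPM or more (y axis), with exact 95% counting intervals as lines, a solid line at equality and dotted lines at 25% higher and 20% lower. All 11 complex IV points lie left of equality, while the complex II points lie on both sides of it and the complex V points spread from Atp5j2 at 0.78 to Atp5g1 at 1.08.

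Complex V, the ATP synthase, had genes on both sides of equality, with an SD of the log2 ratio of 0.13 across genes, against 0.12 in complex I and 0.07 in complex IV. Of its 15 genes 14 reached 10 CPM, with a median of -0.03 (0.004 with both columns scaled to the same total), 9 of 14 below 0, 1 at least 20% lower and 0 at least 25% higher. The 5 genes of the catalytic F1 head had a median of 0.01. Atp5b (chromosome 10, 128083307 to 128090388), the catalytic beta subunit and the most abundant of the 87 genes, was at 1038 CPM without AAOT and 1045 CPM with it, a ratio of 1.007 (0.987 to 1.028). Atp5a1, the alpha subunit, was at 932 and 943 CPM, a ratio of 1.011 (0.9898 to 1.034). With 15777 to 19271 reads in a pool these are the most precise ratios of the set. The sum of the 5 F1 genes was 2361 and 2380 CPM. Atp5c1, the gamma subunit that turns in the head and is named after its value was seen, was at 144 and 155 CPM, a ratio of 1.08 (1.02 to 1.14), and Atp5e, the epsilon subunit, was at 37.3 and 33.9 CPM, with an interval that held equality.

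The membrane and stalk parts of complex V held its lowest genes. Atp5j2 (chromosome 5, 145183704 to 145191541), which encodes the small membrane subunit f, was at 31.5 CPM (585 reads) without AAOT and 24.6 CPM (411 reads) with it, 1.28-fold lower (1.13 to 1.46). Atp5l, subunit g beside it in the membrane, was at 62.0 and 52.5 CPM, 1.18-fold lower (1.08 to 1.29), but only 31.5% of the 50-base stretches of its longest coding transcript are found in no other gene. Atp5j, the coupling factor 6 of the peripheral stalk, was at 70.6 and 60.2 CPM, 1.17-fold lower (1.08 to 1.27). It shares exon sequence on the opposite strand with Gabpa, and the sources used here do not say whether counting used strand. The other 3 stalk genes, Atp5f1, Atp5h and Atp5o, had log2 ratios of -0.005, 0.003 and -0.04.

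The c ring of the rotor is made of 1 mature protein that 3 genes encode, and these did not go the same way. Atp5g1 was at 142 CPM without AAOT and 153 CPM with it, a ratio of 1.08 (1.02 to 1.14). Atp5g3, the most abundant of the 3 in CPM per kb, was at 222 and 207 CPM, 1.07-fold lower (1.02 to 1.12). Atp5g2 was at 76.6 and 75.2 CPM, with an interval that held equality. Added together the 3 genes were at 441 and 436 CPM. The intervals of Atp5g1 and Atp5g3 do not overlap, so their ratios differ by more than counting error in these libraries, and 89.4% of the stretches of Atp5g1 are unique to it.

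Small ATP synthase and assembly genes that the table lists under older symbols fell outside the choice by symbol and were looked up after the other values were seen. Usmg5, now Atp5md, a small membrane subunit of the ATP synthase also called DAPIT, was at 22.8 CPM (423 reads) without AAOT and 15.7 CPM (263 reads) with it, 1.449-fold lower (1.24 to 1.70). This was a larger difference than that of any of the 77 genes. In contrast 2010107E04Rik, now Atp5mpl and also a small membrane subunit, was at 25.96 and 28.0 CPM, with an interval of 0.95 to 1.23. The assembly factor 1810043H04Rik, now Ndufaf8, had 120 and 85 reads, with an interval that held equality.

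**Figure D4:**
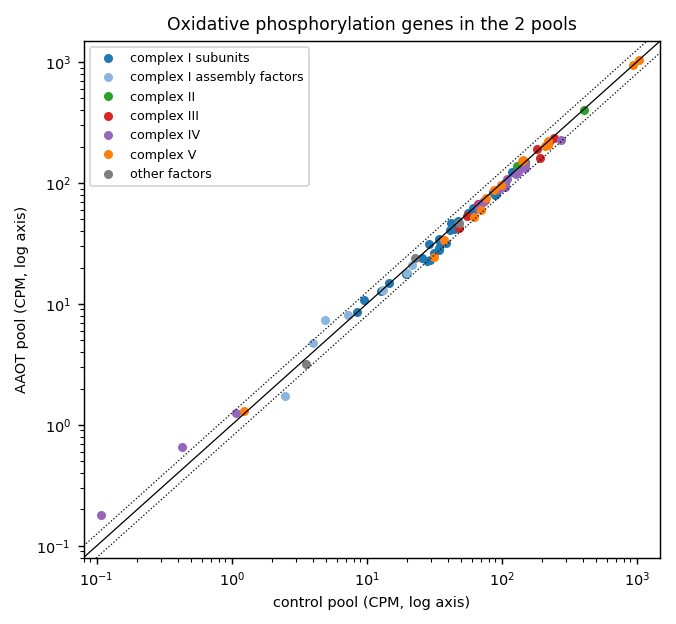
Level of each of the 87 genes in the control pool (x axis, CPM, log scale) and the AAOT pool (y axis, CPM, log scale), coloured by complex, with a solid line at equality and dotted lines at 25% higher and 20% lower. The points run along the line of equality from Cox4i2 at 0.11 and 0.18 CPM to Atp5b at 1038 and 1045 CPM, and those beyond the dotted lines are mostly low genes.

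Transcript length was examined because many of the lowest genes are short. Among all genes at 10 CPM or more, those whose longest transcript is at most 1000 bases had a median log2 ratio of -0.07 (276 genes), those of 1000 to 2000 bases -0.04 (1135 genes) and longer ones -0.01 (6325 genes). The oxidative phosphorylation genes had medians of -0.07 (32 genes), -0.04 (25 genes) and -0.06 (20 genes) in the same classes. In the 2 shorter classes these medians equal those of all genes to 2 decimals. By longest transcript, the complex IV median was -0.11 both for the 7 genes of at most 1000 bases and for the 4 longer ones. Median coding lengths of those 4, Ndufa4, Cox6c, Cox5a and Cox7b, are 460, 606, 645 and 1001 bases. The split therefore does not compare short with long coding transcripts. In complex I the median was -0.01 for 16 short genes and -0.08 for 19 longer ones. The longer ones include Ndufb7 and Ndufb5, with median coding lengths of 623 and 625 bases. Atp5j2, Atp5l and Uqcrq also count as longer, with 540, 544 and 504 bases. The part of length in the ratios was not tested.

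Other genes of the pathway were taken from a list of 50 assembly factors and electron carriers. Of the 46 listed, 34 reached 10 CPM, with a median of -0.02, 0 at least 25% higher and 2 at least 20% lower (5.88%, close to the 5.93% of all genes). These 2 were Higd1a, a small protein that binds complex IV, at 17.8 and 12.7 CPM, 1.396-fold lower (1.17 to 1.67), and Cox10, which makes the heme A precursor for complex IV, at 17.0 and 12.9 CPM, 1.32-fold lower (1.11 to 1.57). Nearest below that size was Higd2a, a complex IV assembly factor, at 37.4 and 30.9 CPM, 1.21-fold lower (1.08 to 1.36). Coa6, which serves copper delivery to complex IV, was at 9.42 and 11.6 CPM, with an interval of 0.998 to 1.52. It reached the mean of 10 CPM only through its level with AAOT. The complex I assembly factor Acad9, named after its value was seen, was at 68.4 and 81.4 CPM, a ratio of 1.19 (1.102 to 1.29), and was the only 1 of the 34 whose interval lay above equality. For 6 of the 34 the interval lay below equality. Among all genes the shares were 18.7% above and 20.8% below.

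Regulators of mitochondrial genes lay on both sides of equality. Of 16 listed, 15 reached 10 CPM, with a median of -0.10, 1 at least 25% higher (6.67%, close to the 7.02% of all genes) and 0 at least 20% lower. The higher gene was Ppargc1a, which encodes PGC-1alpha, at 8.19 CPM (152 reads) without AAOT and 17.8 CPM (298 reads) with it, 2.18-fold higher (1.78 to 2.66), and it reached the mean of 10 CPM only through its level with AAOT. Tfam, which packages mitochondrial DNA and starts its transcription, was at 41.5 and 34.4 CPM, 1.21-fold lower (1.08 to 1.35), and its partner Tfb2m at 34.0 and 28.9 CPM, 1.18-fold lower (1.05 to 1.33). For the factors whose motifs were searched, Nrf1 was at 11.3 and 9.62 CPM, Gabpa at 63.3 and 57.9 CPM and Yy1 at 47.2 and 43.9 CPM. The intervals of Nrf1 and Yy1 held equality, and that of the ratio of Gabpa was 0.84 to 0.996.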

How the data were processed

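The values are CPM as the authors deposited them, with a further scaling factor for each library, so that the columns sum to 1012463 (control) and 987690 (AAOT). Column names match the titles of the samples. Per the submitters' processing notes, RSEM, Bowtie2, edgeR, Trimmomatic 0.38 and the build mm10 were used, in roles that are not stated, with the annotation not given in the sources used here. All values (100%) were whole multiples of 1 step per column (relative tolerance 1e-06), which gave back the read numbers. With 1 library per group no count test could be run on them.

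Ratios were log2((AAOT + 1)/(control + 1)), and folds are plain CPM ratios with exact 95% Clopper-Pearson intervals on the reads, which treat reads as independent molecules. The floor was a mean of 10 CPM and the size counted 25% higher or 20% lower. The members and lists were chosen with earlier results of these data known. Named were, per class, the 4 genes farthest from 0, the 2 highest per kilobase of the longest GENCODE M21 transcript and all past that size, plus core complex I subunits (1 of them is not reported here by name), complex II and isoform pairs, and in other lists the 3 farthest and those nearest the size. Ndufs5, Ndufa11, Ndufaf2, Ndufaf6, Cox7c, Atp5c1, Atp5k, Acad9, Cyc1, the genes under older symbols and remaining stalk genes were named after their values were seen. Positions are from RefSeq on GRCm38, the assembly behind mm10. For 19 of 87 genes under 90% of 50-base stretches were unique, and 21 overlap exons of another listed gene. Steps were tested on simulated reads. Alternatives were 4 scalings, added constants of 0.1 and 5, floors of 1, 50 and none, sizes of 1.5-fold and 2-fold, unique genes only and the median coding length. The software was scipy 1.17.1, pandas 2.3.3, numpy 2.4.6, matplotlib 3.10.9 and Python 3.11.15.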

Additional observations from a re-analysis of the deposited data

How the results depend on the processing

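The median log2 ratio of the 77 genes stayed below 0 under all settings tried (-0.09 to -0.02), as did those of complexes I, III and IV, while those of complexes II and V changed sign under 1 scaling each. The counts past 25% higher or 20% lower are small and moved. With both columns scaled to the same total, an added constant of 5 CPM, a floor of 50 CPM, or a size of 1.5-fold or 2-fold, the count of lower genes was 0 rather than 2 (0 in complex I and 0 in complex V rather than 1 each). With upper quartile scaling it was 5, of which 3 were in complex I and 1 in complex IV. With a floor of 1 CPM or none, 1 gene was counted as higher and 1 more as lower, both complex I assembly factors. With the 3 genes under older symbols, a setting chosen after seeing the data, complex V had 2 lower genes. With the median length of coding transcripts in place of the longest, the median level in the control pool was 70.3 CPM per kb rather than 42.2 for complex I subunits, 10.03 rather than 5.46 for assembly factors, 142 rather than 113 for complex II, 162 rather than 119 for complex III, 171 rather than 121 for complex IV and 142 rather than 94.9 for complex V, so the order of complexes II to V depends on the length used. Depth limits each ratio: the median counting interval of the 77 genes reaches 0.12 to either side on the log2 scale. That is the half-width of a 95% interval, which is wider than an SD of counting error. It is therefore not the same measure as the SD of 0.11 across the genes. No paired analysis was possible because each group has 1 pooled library.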

Other observations

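Atp5k, which encodes subunit e of the ATP synthase, was listed at 1.24 CPM (23 reads) in the control pool and 1.31 CPM (22 reads) in the AAOT pool. Per length this was 2.20 CPM per kb in the control pool, against a median of 94.9 CPM per kb for the 14 other complex V genes, although 98.8% of the stretches of Atp5k are unique. The level of the 5 F1 genes in the control pool ran from 37.3 CPM for Atp5e to 1038 CPM for Atp5b. Genes with under 90% unique stretches had a median log2 ratio of -0.04 (19 genes) and the others -0.06 (58 genes). Genes that overlap exons of another listed gene had a median of -0.08 (19 genes) and the others -0.04 (58 genes).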
